A study of Homo sapiens with 6 samples.

Results

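HEY1, JAG1 and NOTCH3 are 3 genes of the Notch pathway, taken here from 14884 named genes measured on 6 expression arrays. JAG1 encodes a ligand, NOTCH3 a receptor and HEY1 a transcriptional repressor made in response to the pathway. They were chosen because of how their values differ between the groups compared here, so those values are given as a description, without a test. Each of the 3 genes had 1 probe set named for it, the unit in which an array reports a transcript.

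The arrays read total RNA of U-2 OS, an established human osteosarcoma line. All cells carried a retroviral vector for progerin, a shortened lamin A that causes Hutchinson-Gilford progeria. They had been under puromycin at 5 µg/ml for 3 days, and RNA was taken 4 days after infection. On 3 arrays the vector encoded wt-progerin, and on the other 3 it encoded S22A-progerin, in which a serine of the lamin A head that is phosphorylated at mitosis is replaced by alanine. The question is how transcript levels differ when that serine is missing. Cells carrying no progerin were not analysed here, so either group may be the one that changed from the parental line. All cells come from 1 line. The labels call the 3 replicates of a group independent, and the p-values rest on the spread among these replicates. Array medians over all probe sets ran from 6.04 to 6.09. Across genes, pairs of arrays correlated at 0.994 to 0.997 inside a group and at 0.983 to 0.985 across groups.

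Notch signalling passes between touching cells. A ligand of the Delta-like (DLL) or Jagged (JAG) family on 1 cell binds a NOTCH receptor on the next. The receptor is then cut, first by an ADAM protease and then by the gamma-secretase complex, and its freed intracellular domain goes to the nucleus. There it joins the DNA-binding protein RBPJ and a Mastermind-like (MAML) coactivator and switches on genes of the HES and HEY families, which encode repressors of the basic helix-loop-helix class. In bone, the pathway holds osteoblast precursors back from maturing, and HEY1 is also induced by bone morphogenetic proteins (BMPs).

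The promoter sequences of members that differ in opposite directions are shown so that a reader can compare them. They are the 250 bases before the annotated start of JAG1 (GRCh38.p14, chr20:10674000-10674249, minus strand) and of NOTCH3 (GRCh38.p14, chr19:15200996-15201245, minus strand), from RefSeq. HEY1 is named only. Capitals mark the matches to the motifs searched, on either strand.
JAG1: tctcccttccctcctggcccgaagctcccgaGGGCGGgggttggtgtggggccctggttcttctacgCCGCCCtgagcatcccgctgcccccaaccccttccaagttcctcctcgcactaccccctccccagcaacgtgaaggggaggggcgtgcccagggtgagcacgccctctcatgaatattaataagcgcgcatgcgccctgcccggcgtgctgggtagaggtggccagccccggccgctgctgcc
NOTCH3: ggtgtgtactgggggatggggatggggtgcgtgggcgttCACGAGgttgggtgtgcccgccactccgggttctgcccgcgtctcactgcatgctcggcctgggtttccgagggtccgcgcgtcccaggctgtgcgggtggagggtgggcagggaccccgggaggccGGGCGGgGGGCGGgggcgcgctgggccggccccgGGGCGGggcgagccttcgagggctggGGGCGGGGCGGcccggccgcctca
The capitals in JAG1 are 2 GC boxes (GGGCGG, read by SP1-type factors), starting 219 and 183 bases before the gene's start. The NOTCH3 promoter held 5 GC boxes, of which 2 share bases, and 1 N-box (CACNAG, a site type of HES repressors) at 211 bases. Neither stretch held the RBPJ core TGGGAA or its longer form CGTGGGAA, which contains the core. Nor did either hold the E-box CACGTG, a site type of HEY repressors. Over 27305 promoters of the same length, 42.3% held a GC box, 32.0% an N-box, 21.1% the RBPJ core, 0.725% its longer form and 6.49% the E-box. G and C made up 68.4% of the JAG1 stretch and 78.0% of the NOTCH3 stretch, against a median of 58.0% over all promoters. A match is a description of letters and not of binding, and a missing match speaks only of this window.

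HEY1 and JAG1 were higher with S22A-progerin and NOTCH3 was lower. On the log2 scale the differences, S22A-progerin minus wt-progerin, were 0.82 for HEY1, 0.53 for JAG1 and -0.43 for NOTCH3, or 1.77-fold, 1.44-fold and 1.35-fold in size. In none of the 3 genes did the values of the groups overlap. The same held for 42.1% of all tested genes, and it comes from the contrast that chose the 3 genes, so nothing is read from it.

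HEY1, the repressor downstream of the receptors, was read at 5.23, 5.11 and 5.07 on wt-progerin arrays 1, 2 and 3. On the S22A-progerin arrays it was read at 6.03, 5.82 and 6.01. Every S22A-progerin array lay above every wt-progerin array, and the nearest pair was 0.593 apart, wider than the range within either group (0.159 and 0.210). The means were 5.14 ± 0.084 and 5.96 ± 0.116 (SD, n = 3 each). HEY1 stood among the dimmer 50% of genes in mean signal. No detection call was used, so its wt-progerin level cannot be told from background, and a fold from a low signal is compressed.

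JAG1, the ligand, gave 8.70, 8.93 and 8.78 on the wt-progerin arrays, against 9.45, 9.19 and 9.35 on those of S22A-progerin. Array 2 was the highest of its group in wt-progerin and the lowest of its group in S22A-progerin, and those were the nearest values, 0.262 apart. That gap was about as wide as the range within a group, 0.231 in wt-progerin and 0.256 in S22A-progerin. JAG1 averaged 8.80 ± 0.117 and 9.33 ± 0.129 (SD, n = 3 each).

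NOTCH3, the receptor, gave 8.01, 8.00 and 7.92 on the wt-progerin arrays and 7.67, 7.61 and 7.36 on the S22A-progerin arrays. The wt-progerin values lay within 0.083 of each other. The S22A-progerin values spanned 0.303, because array 3 was lower than the other two, and the groups were 0.256 apart at their nearest. The means were 7.98 ± 0.046 and 7.55 ± 0.161 (SD, n = 3 each). Without S22A-progerin replicate 3 the NOTCH3 difference was -0.34, against 0.79 for HEY1 and 0.52 for JAG1.

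**Figure D1:**
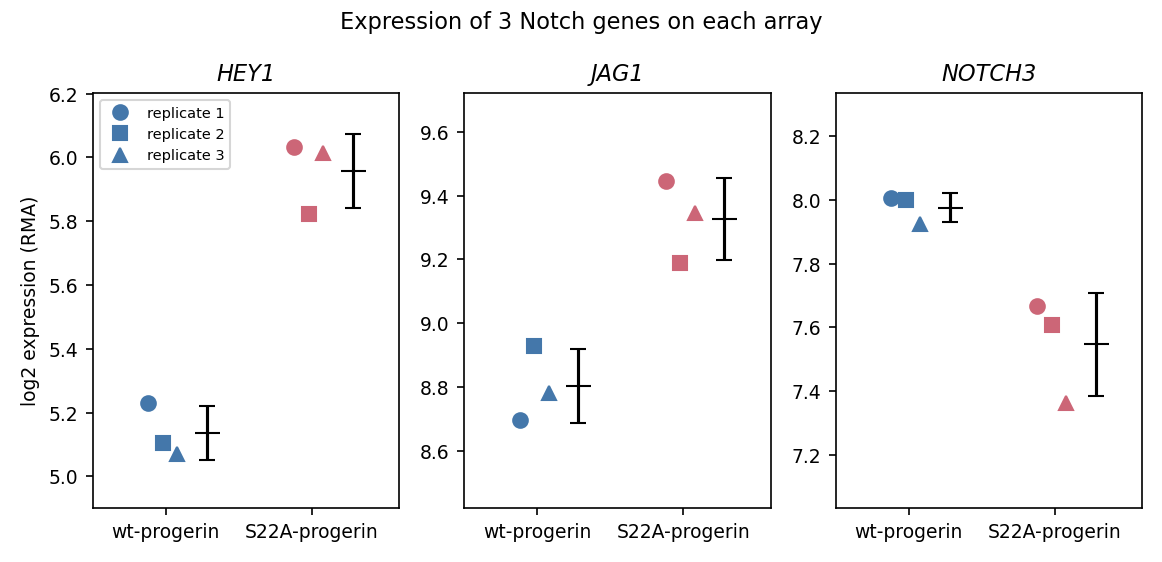
Log2 expression of HEY1, JAG1 and NOTCH3 on each of the 6 arrays, with wt-progerin in blue and S22A-progerin in red, 1 marker shape per replicate number, and the mean ± SD of 3 arrays in black beside them. The panels span the same log2 range. The groups do not overlap in any panel, and the widest gap, 0.593, is that of HEY1.

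Differences of these sizes were not rare in this comparison. Of all 14884 genes, 397 had a difference at least as large as that of HEY1 in either direction, 1093 one at least as large as that of JAG1 and 1645 one at least as large as that of NOTCH3. Ordered from the most raised gene down, HEY1 took place 236 and JAG1 place 509. Ordered from the most lowered gene, NOTCH3 took place 925. The median difference over all genes was -0.00367.

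**Figure D2:**
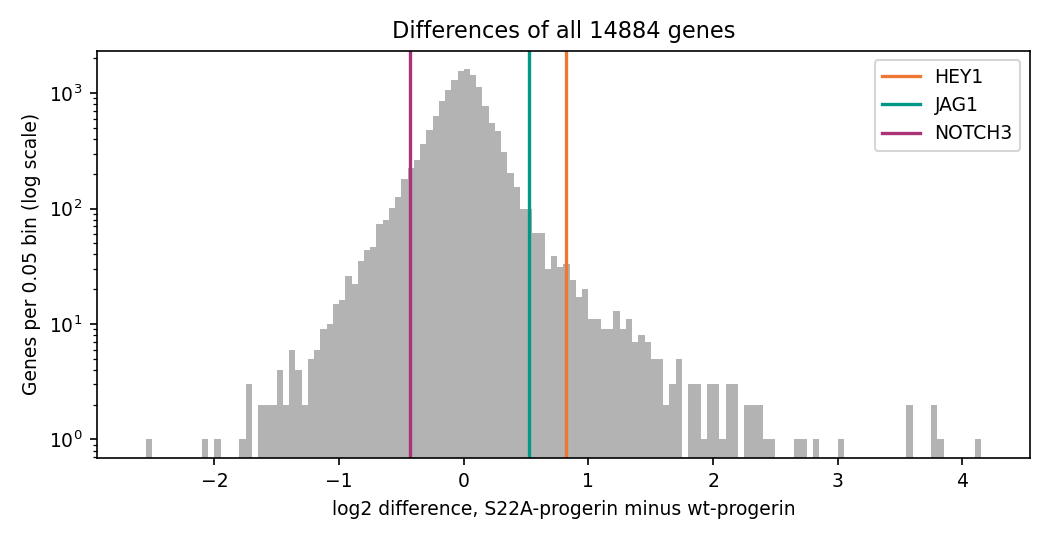
Number of genes (log axis) by log2 difference, S22A-progerin minus wt-progerin, in bins of 0.05, for all 14884 genes. Vertical lines mark NOTCH3 at -0.43, JAG1 at 0.53 and HEY1 at 0.82, all in the flanks of the distribution and far from its ends.

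The rest of the pathway was described through 64 further genes listed by role, of which 52 were measured. These were tested in limma's fit over all genes, two-sided, and called at a Benjamini-Hochberg adjusted p under 0.05 over all 14884. By that rule 25.4% of all genes were called, 10.8% as higher and 14.6% as lower in S22A-progerin. Of the 52 pathway genes, 6 rose and 9 fell, together 28.8%, which is near the share of all genes. Their median difference was 0.036. In 24 of them (46.2%) the groups did not overlap, against 42.1% of all genes. The list as a whole therefore did not stand apart from the background, and the calls below are those of single genes.

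Among the other canonical ligands, DLL1 and DLL3 rose, while JAG2 and DLL4 were not called. DLL1 went from 6.21, 6.17 and 6.10 to 6.56, 6.51 and 6.53, a difference of 0.38 (SE 0.054, limma adjusted p = 0.00255). The 2 sets of DLL1 values lay well apart, with little spread in either. DLL3, a divergent member that acts inside its own cell, rose by 0.30 (SE 0.068, limma adjusted p = 0.0157). Its call was lost without wt-progerin replicate 1 (adjusted p = 0.0568) or wt-progerin replicate 3 (adjusted p = 0.0632). Both ligand genes were read low, with group means of 6.16 and 6.54 for DLL1 and 6.68 and 6.98 for DLL3, wt-progerin first. They stood among the dimmer genes, as HEY1 did. No detection call was used, so their wt-progerin levels cannot be told from background. JAG2, the paralog of JAG1, differed by -0.0017, with a 95% interval from -0.146 to 0.142, which leaves out a difference of the size seen for JAG1. DLL4, the ligand of sprouting vessels, was at 0.19 (interval -0.0015 to 0.376). The atypical ligands DLK1 (-0.05), DLK2 (0.11) and DNER (0.21) were not called, though DNER was without S22A-progerin replicate 2 (adjusted p = 0.0364).

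None of the other 3 receptors was called by limma, nor did any of them have an unadjusted p under 0.05. NOTCH1 differed by -0.06 (interval -0.223 to 0.093) and NOTCH4 by 0.08 (interval -0.068 to 0.235), and neither interval reaches the difference of NOTCH3. NOTCH2 gave 10.64, 10.63 and 10.63 on the wt-progerin arrays, against 10.47, 10.34 and 10.79 on those of S22A-progerin. Its S22A-progerin arrays lay on both sides of the wt-progerin arrays, with array 3 above and arrays 1 and 2 below. Its difference was -0.10, with an interval from -0.364 to 0.158. Without S22A-progerin replicate 3 it was -0.23 and was called (adjusted p = 0.039). That array was the highest S22A-progerin array for NOTCH1, NOTCH2 and NOTCH4 and the lowest for NOTCH3. The genome holds partial copies of NOTCH2, and whether its probe set also reads them was not tested.

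Of the 5 enzymes that add sugars to the receptors, LFNG fell and RFNG rose. Both are fringe genes, whose products modify the fucose on the receptor and change which ligands it answers. LFNG went from 8.68, 8.55 and 8.57 on the wt-progerin arrays to 7.97, 8.00 and 7.99 on those of S22A-progerin. It fell by 0.62 on the log2 scale (SE 0.057, limma adjusted p = 0.000396), 1.53-fold, which was the largest difference among the 52 genes. RFNG was read at 8.99, 9.16 and 8.96 and then at 9.56, 9.54 and 9.46, a difference of 0.48 (SE 0.070, limma adjusted p = 0.00282). The groups lay apart in both genes, in opposite directions. The third fringe gene, MFNG (-0.14), was not called, nor were the transferase genes POFUT1 (-0.16) and POGLUT1 (-0.02). POFUT1, which adds the fucose itself, was called once genes in the dimmer 50% were dropped (adjusted p = 0.02) and with a robust variance prior that follows the signal level (adjusted p = 0.0173). Both settings called a larger share of all genes than the main fit did.

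Ligands become active when a ubiquitin ligase drives their uptake into the sending cell. Of 4 such ligases MIB1 and NEURL1B fell, and MIB2 (0.08) and NEURL1 (0.08) were not called. MIB1 went from 8.95, 8.99 and 8.96 to 8.46, 8.33 and 8.52, a difference of -0.53 (SE 0.065, limma adjusted p = 0.00131). NEURL1B went from 8.04, 7.95 and 7.86 to 7.40, 7.49 and 7.32, a difference of -0.55 (SE 0.072). With the probe sets of NEURL1B averaged the difference was -0.32 (adjusted p = 0.0285).

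Of 8 genes for receptor cleavage, 2 rose and 3 fell. Within gamma-secretase the subunits did not move together. PSEN2, a catalytic subunit, rose by 0.36 (SE 0.070). APH1A (-0.31) and NCSTN (-0.28), which build the complex and take up its substrate, fell, as did APH1B (-0.25). PSENEN (0.06), which activates the complex, was not called. FURIN (0.28), the protease that processes the receptor on its way to the surface, rose. ADAM10 (0.01) and ADAM17 (0.09), which make the first cut after ligand binding, were not called. APH1B lost its call without any 1 of 5 arrays, all but wt-progerin replicate 2 (highest adjusted p = 0.111), and NCSTN without wt-progerin replicate 1 (adjusted p = 0.0518).

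Of 8 genes of receptor turnover, 1 rose and 2 fell. NUMBL, a relative of the Notch inhibitor NUMB, fell from 9.25, 9.30 and 9.23 to 8.83, 8.64 and 8.81, a difference of -0.50 (SE 0.067, limma adjusted p = 0.00195). In the Deltex family of ubiquitin ligases DTX4 rose (0.44) and DTX2 fell (-0.31), while DTX1 (0.04), DTX3 (0.09) and DTX3L (-0.01) were not called. DTX2 lost its call without wt-progerin replicate 3 (adjusted p = 0.0533). NUMB itself (0.14) and the ubiquitin ligase gene ITCH (0.05) were not called.

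In the nucleus, none of 6 coactivator genes was called, and 1 of them, MAML1, had an unadjusted p under 0.05. RBPJ, which holds the complex on DNA, differed by -0.03 (interval -0.202 to 0.135). MAML1 (-0.16), MAML2 (0.10) and MAML3 (0.12), the Mastermind-like genes, were not called, nor were the cofactor genes KAT2B (0.04) and SNW1 (-0.05). MAML1 was called once genes in the dimmer 50% were dropped (adjusted p = 0.0341), a filter that raised the share of all genes called. Of the corepressor list 2 of 10 genes were measured. KDM5A, a histone demethylase, fell (-0.26), but lost its call without wt-progerin replicate 2 or 3 or S22A-progerin replicate 1 or 2 (highest adjusted p = 0.108). RITA1 (0.05), which carries RBPJ out of the nucleus, was not called.

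None of the other 9 target genes measured was called by limma, and 1 of them had an unadjusted p under 0.05. That was HES4, a HES1 relative, which gave 7.88, 7.79 and 7.86 on the wt-progerin arrays, against 8.00, 8.08 and 7.97 on those of S22A-progerin. The HES4 groups did not overlap, and the difference was 0.17 (SE 0.057, limma adjusted p = 0.0678). It was called once genes in the dimmer 50% were dropped (adjusted p = 0.019) and with a robust variance prior that follows the signal level (adjusted p = 0.0483). Both settings called a larger share of all genes than the main fit did. The paralogs of HEY1 were HEY2, at -0.06 (interval -0.233 to 0.105), and HEYL, at 0.06 (interval -0.264 to 0.377). Neither interval reaches the difference of HEY1, but both signals were low, and a fold from a low signal is compressed. The group means were 5.71 and 5.64 for HEY2 and 6.41 and 6.47 for HEYL, wt-progerin first. NRARP, a feedback inhibitor made in response to the pathway, was at -0.03 (interval -0.178 to 0.119). HES7 (0.15), HES5 (0.04), HES2 (0.03), HES6 (-0.01) and HES3 (-0.01) were not called either. Apart from HES4, these target genes stood among the dimmer 50% of genes, as HEY1 did. No detection call was used, so a missing call does not show that a transcript was unchanged. HES1 was not analysed here.

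**Figure D3:**
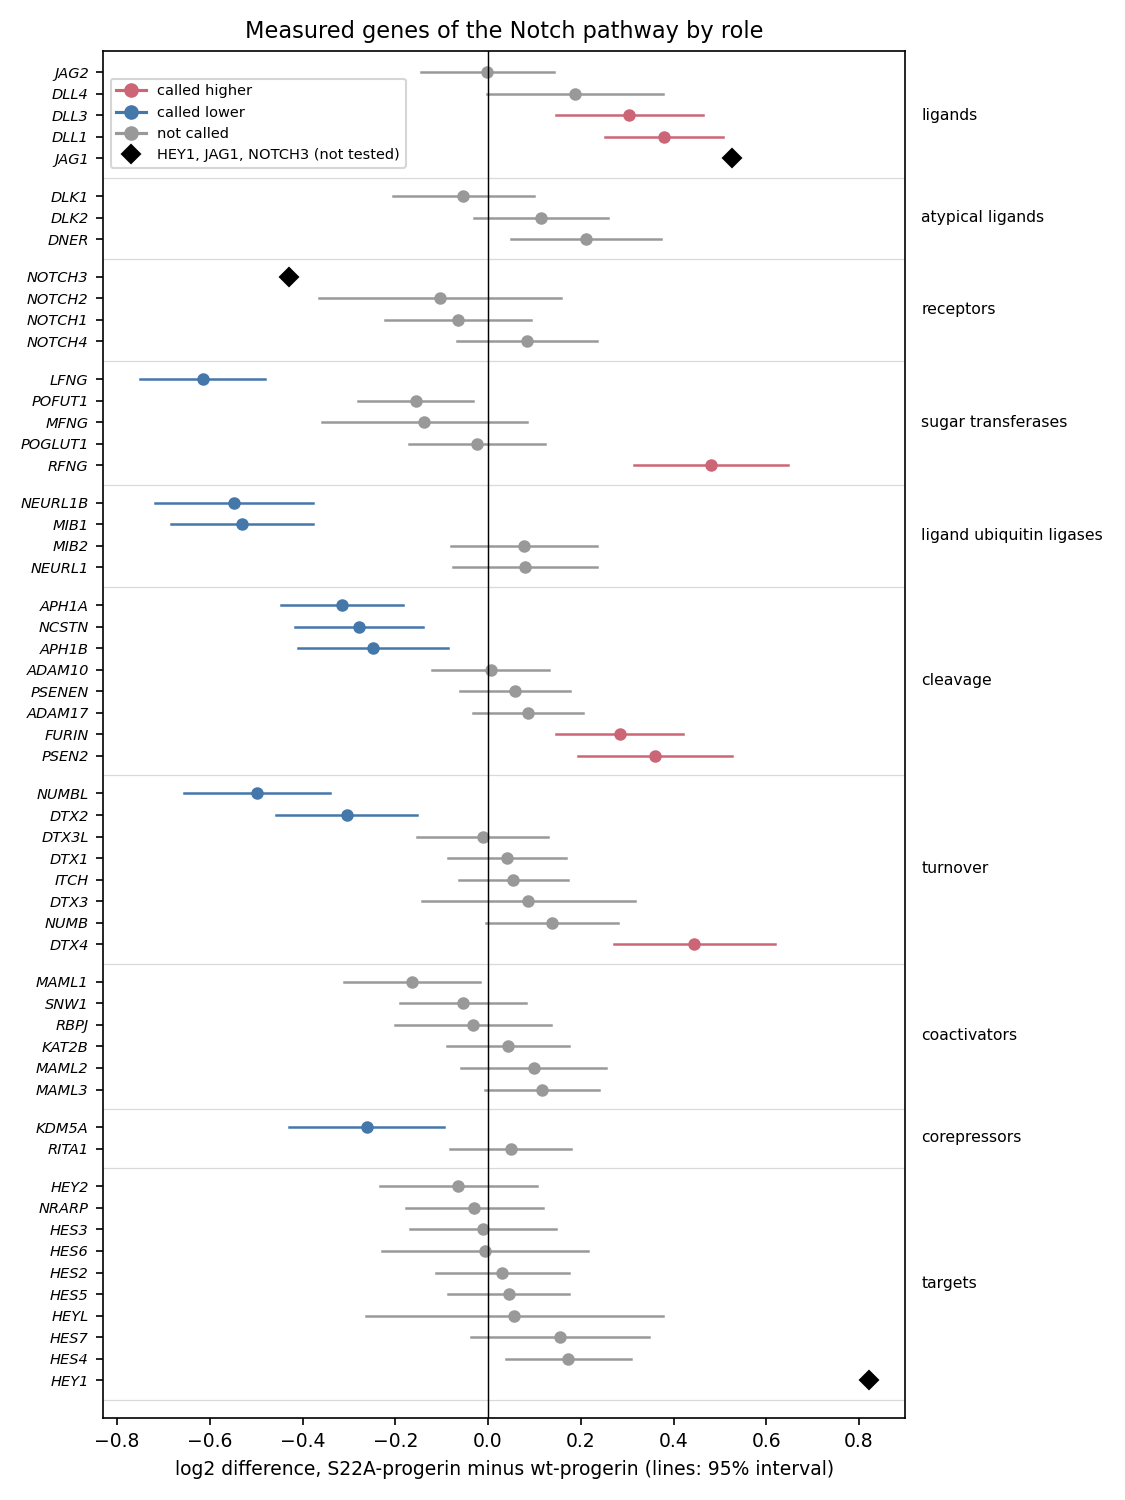
Log2 difference, S22A-progerin minus wt-progerin, of the measured genes of the Notch pathway, grouped by role. Circles carry limma's 95% interval and are coloured by call, and diamonds mark HEY1, JAG1 and NOTCH3, which carry no test. Calls in both directions stand within the sugar transferases, the cleavage genes and the turnover genes, and no receptor, coactivator or target gene is called.

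JAG1 and HEY1 are known to respond to other pathways too, so 3 further lists were read in the same fit. Of 14 listed BMP genes 7 were measured, of which 1 rose and 3 fell. That is 57.1% called, against 25.4% of all genes. These lists are short and were chosen with earlier results of these data known, so nothing is read from their shares. BMP2, a ligand, went from 7.07, 7.18 and 7.10 to 8.15, 8.03 and 8.15. BMP4, another ligand, fell from 10.98, 11.01 and 11.01 to 10.38, 10.37 and 10.32. NOG (-0.45), which encodes the BMP-binding antagonist noggin, fell as well. SMAD6, an inhibitory SMAD that BMPs induce, went from 7.15, 7.09 and 7.23 to 6.27, 5.99 and 6.11, a difference of -1.03 (SE 0.082, limma adjusted p = 0.000206). The ligand genes thus moved in opposite directions. SMAD7 (-0.15), BAMBI (0.11) and the antagonist gene GREM1 (0.21) were not called. The ID genes, the usual readout of BMP signalling, were not analysed here.

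Of 10 listed target genes of the Wnt pathway 9 were measured, of which 2 rose and 4 fell (66.7% called, against 25.4% of all genes). AXIN2, the standard feedback target of beta-catenin, went from 7.95, 8.21 and 8.16 to 7.47, 7.44 and 7.34, a difference of -0.69 (SE 0.082, limma adjusted p = 0.00111). RNF43 (-0.40) and ZNRF3 (-0.25), ubiquitin ligases that remove Wnt receptors, and NOTUM (-0.37), an enzyme that inactivates Wnt, fell. NKD1 (-0.08), another feedback inhibitor, was not called, nor were LEF1 (0.02) and SP5 (0.16). DKK1 (0.59), a secreted Wnt antagonist, and LGR5 (0.32), a receptor for R-spondins, rose. DKK1 was read low, with group means of 4.58 in wt-progerin and 5.17 in S22A-progerin, so its wt-progerin level cannot be told from background. ZNRF3 lost its call without any 1 of 5 arrays, all but S22A-progerin replicate 1 (highest adjusted p = 0.112), and after a repeated quantile normalization (adjusted p = 0.0583). DKK1 lost it without wt-progerin replicate 1 or 3 or S22A-progerin replicate 2 (highest adjusted p = 0.0668). LGR5 lost it without any wt-progerin array or S22A-progerin replicate 1 (highest adjusted p = 0.0532). Of the TGF-beta list 2 of 11 genes were measured, of which CCN2 (0.79), connective tissue growth factor, rose and SKIL (0.05), a brake on SMAD signalling, was not called.

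The genes most like each member were found by the root mean square distance between log2 profiles over the 6 arrays, each profile centred on its own mean, among 12089 candidates. The nearest to HEY1 were LCP1 (distance 0.023), which encodes an actin-bundling plastin, OSBP2 (0.044), an oxysterol-binding protein gene, and MEGF10 (0.045), an engulfment receptor gene. LCP1 was read at 7.63, 7.54 and 7.43 and then at 8.45, 8.22 and 8.44, so it shares with HEY1 the lower value of S22A-progerin array 2. The nearest to JAG1 were STARD10 (0.033), a lipid transfer protein gene, BTG2-DT (0.039), a noncoding transcript, and FGF18 (0.050), a fibroblast growth factor gene. All 3 share with JAG1 the high value of wt-progerin array 2 and the low value of S22A-progerin array 2. The nearest to NOTCH3 were DPYSL3 (0.035), CEMIP2 (0.038), a cell-surface hyaluronidase gene, and KIAA1143 (0.040). Each of these had its lowest value on S22A-progerin array 3, as NOTCH3 did. All values come from the same 6 arrays, and the distances are a description of them.

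**Figure D4:**
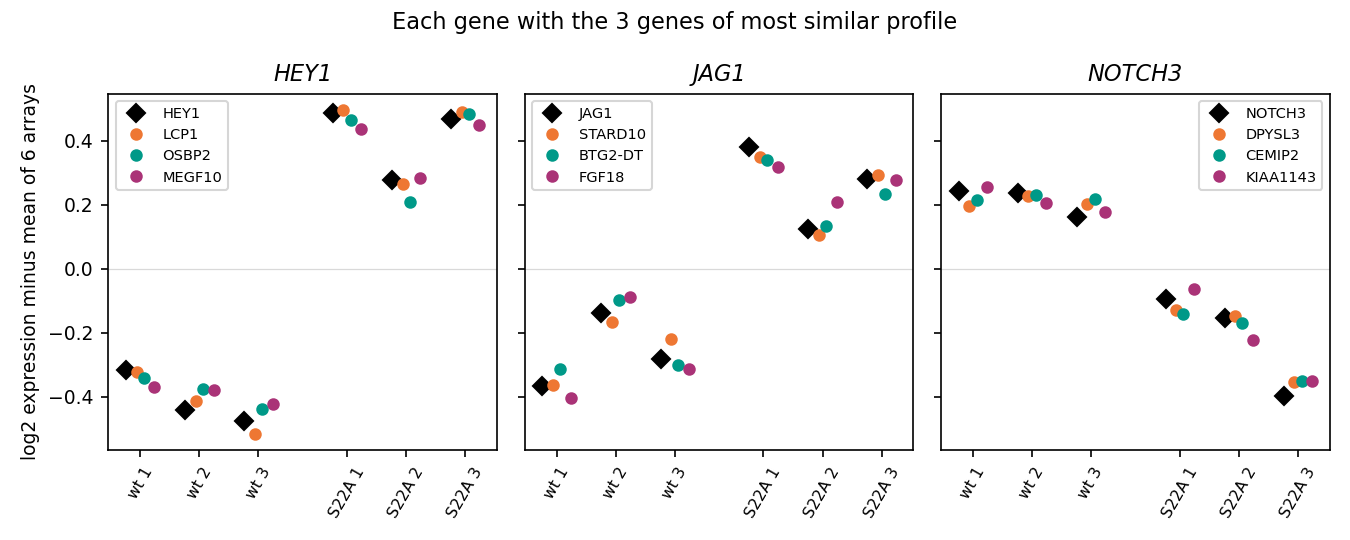
Log2 expression minus the gene's mean over the 6 arrays, by array, for HEY1, JAG1 and NOTCH3 (black diamonds) and the 3 genes nearest to each (coloured circles). The nearest genes were picked for small distances on these same arrays, from 0.023 to 0.050. The order of replicates within a group can still differ, as for NOTCH3 and DPYSL3 in wt-progerin.

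HEY1 and JAG1 were not each other's nearest genes. Their distance was 0.183, and of the 14883 genes compared 328 lay nearer to HEY1 than JAG1 did, and 1276 nearer to JAG1 than HEY1 did. The replicate pattern differed within wt-progerin, where array 1 was the highest for HEY1 and the lowest for JAG1. Within S22A-progerin the order was the same in both genes, with array 1 highest and array 2 lowest. The distance also takes in the unequal group differences, 0.82 and 0.53.

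The label of the line and the presence of other cells were read from marker lists. Of 12 osteoblast markers 6 were measured, with summed log2 levels of 39.9 to 40.1 in wt-progerin and 40.3 to 40.7 in S22A-progerin. RUNX2 fell (group means 8.77 and 8.03) and SPP1 rose (7.18 and 8.36), and the other 4, IBSP (3.86 and 3.88) among them, were not called. Endothelial markers, of interest because vessels express JAG1, HEY1 and DLL4, had 8 of 11 measured, summing to 43.9 to 45.3 and 45.0 to 46.0. PECAM1 (group means 5.23 and 5.23) and EMCN (3.98 and 3.94) were not called, and CLDN5 (0.29) was the 1 that rose. Mural cell markers, of interest because smooth muscle expresses NOTCH3, had 4 of 10 measured, summing to 29.8 to 30.1 and 29.0 to 29.2. MCAM (-0.55) fell, and RGS5 (-0.01), DES (-0.05) and CSPG4 (-0.22) were not called. Leukocyte markers had 4 of 10 measured, summing to 25.1 to 25.6 and 26.9 to 27.7, and CD68 (1.48) was the 1 that rose. The mural sum was lower and the leukocyte and osteoblast sums were higher on all S22A-progerin arrays than on any wt-progerin array. These sums lean on single genes: CD68, MCAM, and SPP1 (1.18) set against RUNX2 (-0.74). The leukocyte markers CD14 (0.18), LYZ (0.26) and TYROBP (0.17) were not called, and their groups overlapped. No cell type is therefore read from the sums, and their part in the results was not tested. All cells come from 1 line, and RNA of a whole culture cannot tell a change in every cell from a change in some of them.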

How the data were processed

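The deposited log2 values came from Affymetrix Expression Console, where the authors ran RMA (background correction, quantile normalization, probe set summary), per the submitters' processing notes. Its version is not given in the sources used. Of 53617 probe sets, 16098 had 1 gene symbol in the platform annotation, 0 had several and 37519 were not named here. For each of 14884 genes the probe set with the highest mean was used. Genes were fitted with limma 3.58.1 in R 4.3.3 (lmFit, eBayes), 2 groups, no covariate, and the code was tested on simulated data. The number of arrays limits the precision, and no 2 arrays were identical. Signals of different probe sets were ranked only for the filter on dim genes, and marker levels were summed only to set arrays side by side. Members and lists were chosen with earlier results of these data known. The naming rule took the members, the Notch lists, called genes of the BMP, TGF-beta and Wnt lists, and the 3 nearest profiles per member, passing over LOC, LINC, MIR, SNOR, RNU, antisense and open reading frame symbols and pseudogenes. Uncalled BMP, TGF-beta and Wnt genes and single markers were named after their values were seen. Alternatives covered scaling, a filter on dim genes, averaged probe sets, variance priors, array weights, replicate blocks, each array left out and a stricter threshold.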

Additional observations from a re-analysis of the deposited data

How the results depend on the processing

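The members were chosen with groups that do not overlap, so leaving out an array could not turn the sign of a difference. It gave 0.78 to 0.89 for HEY1, 0.47 to 0.59 for JAG1 and -0.49 to -0.34 for NOTCH3. With the arrays quantile normalized again the values were 0.79, 0.56 and -0.41, and centred on the median 0.79, 0.49 and -0.46. Each member had 1 probe set, so averaging changed nothing. Leaving out each array in turn, 5 to 7 pathway genes rose and 6 to 9 fell, and 1126 to 1553 and 1514 to 2048 of all genes. At an adjusted p under 0.01, 5 pathway genes fell (4 rose), and 852 of all genes rose and 1226 fell, as a stricter threshold must give fewer. With the dimmer 50% of genes left out 4 pathway genes rose and 11 fell, and the pathway genes in that dimmer part were no longer counted. Of all genes that remained, 1369 rose and 2365 fell, against 1601 and 2176 of all 14884 in the main fit. The filter thus raised the share of genes called, and nothing about the pathway is read from the gain. The replicate numbers did not pair the arrays: deviations of same-numbered arrays from their group means correlated at -0.019, -0.055 and -0.0056 across genes. With the replicate number as a fixed replicate block 6 pathway genes rose and 7 fell, as APH1B (adjusted p = 0.053) and KDM5A (adjusted p = 0.0581) were no longer called, and with a random block 6 and 9. Low signal, as for HEY1, and 3 arrays per group limit the small differences that can be called.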
